A study of Homo sapiens with 3 samples.

Results

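The clustered protocadherin genes form 3 neighbouring arrays on human chromosome 5, named alpha, beta and gamma. They were taken as the protein-coding genes of GENCODE release 44 on that chromosome whose symbol begins with PCDHA, PCDHB or PCDHG, which gave 53 of 20033 protein-coding genes. The alpha array held 15 of them, the beta array 16 and the gamma array 22. The 5 C-type genes (PCDHAC1, PCDHAC2, PCDHGC3, PCDHGC4 and PCDHGC5) were set beside the other 48, the alternate genes, which comprised 13 of alpha, 16 of beta, 12 of gamma A and 7 of gamma B. The 3 arrays lay between bases 140786136 and 141512977 of chromosome 5 (726.8 kb, build GRCh38), all 53 genes on the plus strand.

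Occupancy was measured by chromatin immunoprecipitation followed by sequencing (ChIP-seq) in wild-type (WT) neural stem cells. The cells had been derived from the established human embryonic line H9. All cells were fixed with disuccinimidyl glutarate (2 mM) and afterwards with formaldehyde (1%). Each antibody had 1 library, and the deposited peak lists for CHD8 (23393 peaks) and TRRAP (14735 peaks) were used, while the IgG control library was not analysed here. There were therefore no replicates, no p-value was computed, and the read depth behind the peaks is unknown. A gene without a listed peak had no site past the authors' threshold, which does not show that the protein was absent there.

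CHD8 is an ATP-dependent chromatin remodeller of the chromodomain helicase family, and TRRAP is the scaffold subunit of TIP60- and SAGA-type histone acetyltransferase complexes that contacts MYC and E2F factors. Clustered protocadherins are cell-surface adhesion proteins that give neurons an individual identity. Each variable exon has a promoter of its own. In the alpha and gamma arrays it is spliced to constant exons shared by the whole array, and the beta genes have no shared constant exons. Alternate promoters are known to be chosen stochastically in single neurons, with the help of CTCF, cohesin, DNA methylation and distal enhancers, whereas C-type promoters are used more uniformly. Most alternate promoters carry a conserved sequence element with a CGCT core, and the element is known to be missing from PCDHB1, PCDHAC2, PCDHGC4 and PCDHGC5.

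The promoter sequences are shown first because the occupancy of these genes is read against them. A word of the form TGNCGCT, chosen after the members' sequences had been seen, was searched without mismatch on both strands from 250 bases before to 50 bases after each start. It was present in 35 of the 53 members (66.0%), against 2809 of all 20033 promoters of the same length (14.0%). In 31 members (58.5%) the word stood on the coding strand with its first base at −84 to −41 bases from the start, a range taken from the members themselves, and the same held for 272 of all genes (1.36%). Representatives of each class are printed 5′ to 3′ on the plus strand of GRCh38, with the word in capitals and 20 bases on each side.
PCDHA1, chr5:140786079-140786125: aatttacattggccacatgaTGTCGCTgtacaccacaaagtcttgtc
PCDHA6, chr5:140827890-140827936: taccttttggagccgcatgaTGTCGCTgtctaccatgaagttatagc
PCDHA13, chr5:140882055-140882101: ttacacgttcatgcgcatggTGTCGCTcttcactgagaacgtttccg
PCDHB2, chr5:141094537-141094583: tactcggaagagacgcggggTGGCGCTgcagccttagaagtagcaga
PCDHB3, chr5:141100386-141100432: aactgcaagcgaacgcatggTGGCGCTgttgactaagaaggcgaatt
PCDHB15, chr5:141245307-141245353: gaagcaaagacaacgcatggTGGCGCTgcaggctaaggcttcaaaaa
PCDHGA3, chr5:141343760-141343806: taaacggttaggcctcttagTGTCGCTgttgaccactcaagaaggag
PCDHGB4, chr5:141387637-141387683: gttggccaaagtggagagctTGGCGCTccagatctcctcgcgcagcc
PCDHGC3, chr5:141475873-141475919: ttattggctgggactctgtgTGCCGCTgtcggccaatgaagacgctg

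Among these 9 genes, only PCDHB2 had a CHD8 peak at its start, and none had a TRRAP peak. For comparison, the 150 bases upstream of the start are printed for PCDHAC1, the other member with a CHD8 peak, and for PCDHAC2 and PCDHB1, which had none. None of the words searched occurs in these stretches, so they carry no capitals.
PCDHAC1, chr5:140926149-140926298: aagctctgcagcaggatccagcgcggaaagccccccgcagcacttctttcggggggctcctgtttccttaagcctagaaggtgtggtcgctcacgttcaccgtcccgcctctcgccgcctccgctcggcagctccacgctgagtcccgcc
PCDHAC2, chr5:140966326-140966475: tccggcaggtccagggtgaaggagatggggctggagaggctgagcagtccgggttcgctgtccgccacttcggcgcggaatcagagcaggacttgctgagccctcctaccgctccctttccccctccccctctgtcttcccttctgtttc
PCDHB1, chr5:141051224-141051373: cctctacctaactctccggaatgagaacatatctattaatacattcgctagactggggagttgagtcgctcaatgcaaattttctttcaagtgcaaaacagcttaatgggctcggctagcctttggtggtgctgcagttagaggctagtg

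A promoter was counted as occupied if a peak overlapped the 1 kb on either side of the start of the canonical transcript. By this rule 2 of the 53 members had a CHD8 peak (3.77%, Wilson 95% interval 1.04 to 12.8), while 11208 of all protein-coding genes had one (55.9%). No member had a TRRAP peak (0 of 53, upper bound 6.76%), against 34.9% of all genes, and none had both, against 34.0%. The remaining 51 members (96.2%) had neither, compared with 43.1% of all genes. The other protein-coding genes of chromosome 5 had a CHD8 peak at 507 of 829 starts (61.2%) and a TRRAP peak at 296 (35.7%), so that the rest of the chromosome was close to the genome-wide shares. Intervals cover counting error alone.

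The 2 occupied members were the C-type gene PCDHAC1 and the alternate gene PCDHB2. This made 1 of 5 C-type genes (20.0%, 3.62 to 62.4) and 1 of 48 alternate genes (2.08%, 0.369 to 10.9) with a CHD8 peak. The classes were not tested against each other, because neighbouring genes from 1 library are not replicates and only 5 genes are C-type. None of the 13 alpha alternate, 12 gamma A and 7 gamma B promoters had a CHD8 peak, and among the 16 beta promoters PCDHB2 alone had one.

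PCDHAC1, the first C-type exon of the alpha array, starts at base 140926299. Its CHD8 peak covered bases 140926148 to 140926758, with the summit 345 bp past the start in the 5′ untranslated part of exon 1. The deposited fold, the authors' ratio of signal over the background of the caller, was 9.31 with a −log10 q of 13.6. The peak ranked 11409 of 23393 (the first 48.8% of the list by significance), and 63.1% of the CHD8 peaks at promoters had a fold at least as high. Within 100 bp of the summit, 10.1% of CHD8 peaks on the main chromosomes held the CTCF word AGNNGGCGC and 20.5% the word GGCGCT. The sequence near this summit held the CTCF word, which ran into GGCGCT, and both are in capitals here.
PCDHAC1 near the summit, chr5:140926607-140926636: ctgcacccctAGGCGGCGCTgcgctcctca

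PCDHB2, the second gene of the beta array, starts at base 141094615. Its CHD8 peak covered bases 141094575 to 141094977, with the summit 83 bp past the start, in the 5′ untranslated part of PCDHB2 and in an exon of one transcript of the long noncoding RNA PCDHB1-AS1. The fold was 10.2 and the −log10 q 16.1, at rank 9864 (42.2%), and 55.1% of CHD8 promoter peaks had a fold at least as high. Both member peaks thus lay near the middle of the list, whose promoter peaks had a median fold of 10.6 (25th to 75th percentile 7.98 to 14.6). Neither overlapped a TRRAP peak, which follows from the lack of any TRRAP peak in the interval of the arrays. Of the CHD8 peaks in the same decile of ranks 55.2% overlapped one. The TGGCGCT printed above for PCDHB2 began at −58 bases from its start and ended at base 141094563, before the first base of the peak. A separate match to TGNCGCT lay within 100 bp of the summit.

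The 4 other C-type genes differed in how far away the nearest CHD8 peak lay. It was 39718 bp from PCDHAC2, 18355 bp from PCDHGC3, 9291 bp from PCDHGC4 and 5240 bp from PCDHGC5. The 2 occupied members had their start inside the peak, and no member fell between that and 5240 bp. After PCDHGC5 the closest were PCDHB3 at 5496 bp, PCDHGC4, PCDHGA1 at 9432 bp and PCDHB1 at 9964 bp.

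Within the arrays the distances were larger. PCDHA1 and PCDHA13, the first and last alpha alternate genes, lay 74568 and 44024 bp from a CHD8 peak. PCDHB15, the last beta gene, lay 74868 bp away, and PCDHB12, the farthest of all members, 111544 bp. PCDHGA12, the last gamma A gene, lay 63814 bp away. For TRRAP the nearest peak was 24146 bp from PCDHGC5 and 418612 bp from PCDHB2, the extremes of the 53 members. PCDHB2 is the member start nearest the middle of the long stretch without a TRRAP peak described below, and this position sets its distance.

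**Figure D1:**
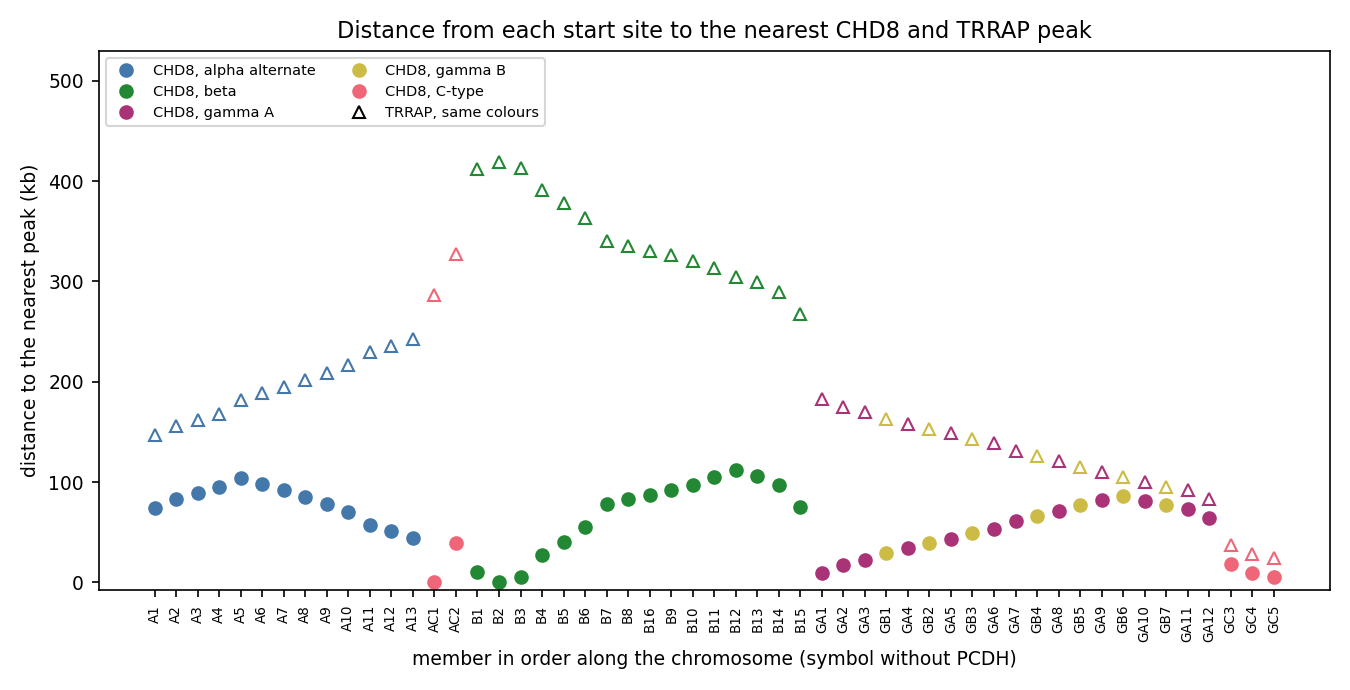
Distance in kb from each of the 53 member starts (horizontal axis, in chromosomal order, symbols without PCDH) to the nearest CHD8 peak (filled circles) and TRRAP peak (open triangles), coloured by class, 1 library per antibody. The PCDHAC1 and PCDHB2 circles sit at 0, the circles peak inside each array, and no triangle comes below 24146 bp.

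In the whole interval of the 3 arrays the CHD8 list held 8 peaks, which is 11.0 per Mb against 6.63 per Mb on chromosome 5 and 7.46 per Mb over all main chromosomes. The TRRAP list held 0 peaks there, against 3.92 per Mb on chromosome 5 and 4.63 per Mb over the main chromosomes. CHD8 peaks were thus no sparser per Mb in the interval than elsewhere, a measure that does not allow for how many starts a region holds. Of the 8, 2 lay at a member start and another at the start of TAF7. Over all, 12578 of the 23393 CHD8 peaks lay within 1 kb of a protein-coding start. With no TRRAP peak in the interval, none of the 8 could overlap one, so this is no separate result. Of all CHD8 peaks, 48.6% overlapped a TRRAP peak. All 8 summits lay in sequence present in 1 copy in the genome.

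**Figure D2:**
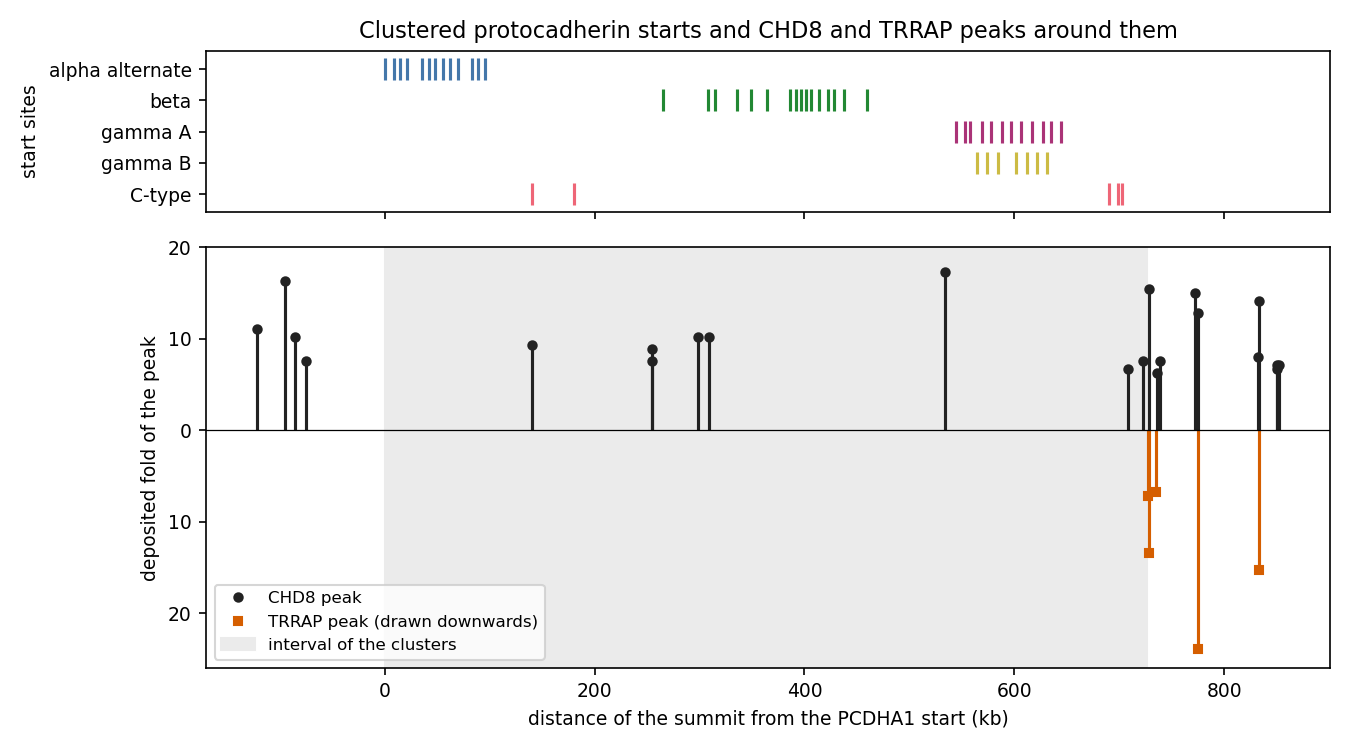
Upper panel: starts of the members by class along the chromosome, in kb from the PCDHA1 start. Lower panel: deposited fold of each CHD8 peak (circles, upwards) and TRRAP peak (squares, downwards), with the interval of the arrays in grey. The 8 CHD8 peaks of the interval stand between the groups of starts or at their edges, and the first TRRAP squares appear beyond the right end of the grey area.

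The CHD8 peak with the highest fold of the interval belonged to no protocadherin. It covered bases 141320263 to 141321082 at the start of TAF7, which encodes a subunit of the general transcription factor TFIID and lies between the beta and gamma arrays. Its summit was in the 5′ untranslated part of TAF7, at −10112 bp from the PCDHGA1 start, with a fold of 17.3, a −log10 q of 36.7 and rank 2646 (11.3%). In the same decile of ranks 74.6% of CHD8 peaks overlapped a TRRAP peak, and this one, in an interval without TRRAP peaks, could not. The other protein-coding genes inside the interval, SLC25A2 (a mitochondrial ornithine transporter) and ENSG00000279983, had neither peak.

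The remaining 5 CHD8 peaks lay between or within the arrays, away from any member start. A pair stood about 10 kb before PCDHB1, in the gap between the alpha and beta arrays. The first of them, at bases 141040789 to 141041016, had a fold of 7.54 and its summit 3 bp inside the long noncoding RNA ENSG00000288892. The second, at bases 141041185 to 141041410, had a fold of 8.87 and its summit at −373 bp from the start of that RNA, outside any annotated gene. A TGNCGCT match lay within 100 bp of this second summit and also of the PCDHB2 and TAF7 summits, as in 9.63% of CHD8 peaks on the main chromosomes. The 60 bases on each side of the second summit are printed with the word in capitals.
CHD8 peak before PCDHB1, chr5:141041218-141041338: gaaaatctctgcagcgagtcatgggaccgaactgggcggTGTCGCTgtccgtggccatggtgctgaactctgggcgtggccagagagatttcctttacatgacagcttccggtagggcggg

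Another peak, at bases 141084527 to 141084774, lay at −9986 bp from the PCDHB2 start in an intron of PCDHB1-AS1, with a fold of 10.2 and rank 10151. The last pair lay in the introns that precede the constant exons of the gamma array. The first, at bases 141494321 to 141494493, was 5317 bp past the start of PCDHGC5 with a fold of 6.66, and at rank 20677 (88.4%) it was the weakest of the 8. The second, at bases 141508793 to 141509216, was 19909 bp past that start with a fold of 7.54. Its summit was 920 bp past an annotated start of a further PCDHGC3 transcript. When the starts of all transcripts were used in place of canonical ones, PCDHGC3 was therefore counted as occupied by CHD8. This gave 2 of 5 C-type genes and 3 of 53 members. The further start lies past PCDHGC5, within the span of every gamma gene, and is not the C-type promoter of PCDHGC3 at base 141475966. The share of all genes under this rule is not given here. The SP word GGGGCGGGG lay within 100 bp of the summit in 12.0% of CHD8 peaks on the main chromosomes. The surroundings of this summit are shown with that word, which stands here on the minus strand, in capitals.
CHD8 peak in the gamma array, chr5:141508930-141509050: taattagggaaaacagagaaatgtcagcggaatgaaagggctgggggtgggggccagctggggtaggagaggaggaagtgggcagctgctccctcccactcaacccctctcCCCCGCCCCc

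Directly past the last base of the gamma array TRRAP peaks resumed, while CHD8 peaks lay on both sides of that base. A CHD8 peak began 119 bp beyond it (bases 141513096 to 141514309, fold 15.5, rank 3443), and TRRAP peaks began 250 bp beyond it (bases 141513227 to 141513379, fold 7.21) and at base 141513714 (to 141514422, fold 13.4). The CHD8 peak overlapped both TRRAP peaks. Widening the interval by 1 kb on each side, an alternative chosen after these peaks had been seen, gave 9 CHD8 and 2 TRRAP peaks. Folds were scaled separately in each list and were not compared between them.

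The stretch without a TRRAP peak around the arrays ran from base 140639451 to base 141513226 (873.8 kb) and contained 64 protein-coding starts, among them all 53 members. Of 14333 stretches between neighbouring TRRAP peaks it held the most starts and ranked 773 by length. The next was on chromosome 17 with 63 starts, among them keratin genes. Counted as consecutive starts with no TRRAP peak within 1 kb, the run from NDUFA2 to PCDHGC5 had 63 genes, and 4 of 3651 runs were at least that long.

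For CHD8 the members fell into several shorter stretches. The 22 gamma starts shared one stretch of 173.2 kb, and 20 of 3759 runs of starts without CHD8 were at least as long in genes. PCDHB3 to PCDHB15 shared a stretch of 225.3 kb with 16 starts, 14 of them members. The 13 alpha alternate starts shared a stretch of 214.6 kb. PCDHAC2 and PCDHB1 were alone in stretches of 114.0 and 43.1 kb.

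Base composition was examined because CHD8 and TRRAP peaks were more frequent at CpG-rich promoters over all genes. The CpG ratio, observed over expected CpG in 500 bp on each side of the start, had a median of 0.665 in the members (0.193 in PCDHGC5 to 0.914 in PCDHGA11) and 0.725 in all genes. By class the median was 0.765 in alpha alternate, 0.492 in beta, 0.661 in gamma A and 0.700 in gamma B promoters. The occupied members were not at the top: PCDHAC1 had a ratio of 0.789 and PCDHB2 of 0.556. GC content set the members further apart, with a median of 44.4% (40.6 to 64.5) against 61.3% in all genes. C-type promoters had a median GC content of 55.7%, with 63.0% in PCDHAC1 and 64.5% in PCDHAC2.

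**Figure D3:**
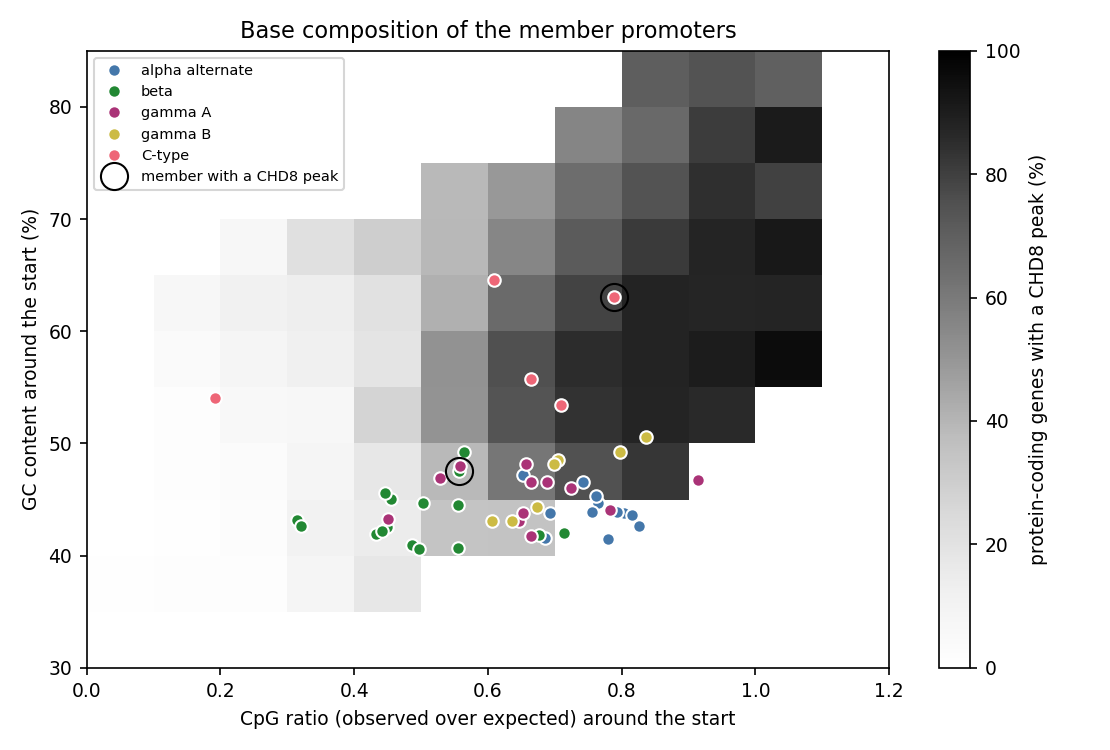
CpG ratio (horizontal) and GC content in percent (vertical) of the 53 member promoters, coloured by class, over the percentage of all protein-coding genes with a CHD8 peak in each square (grey scale, squares of at least 20 genes). Most alternate members lie along the lower edge, below 50% GC, and the circled points are PCDHAC1 and PCDHB2.

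Of the 15 members in the upper 5 deciles of CpG ratio, 1 had a CHD8 peak and 0 a TRRAP peak, whereas all genes in those deciles had them at 80.5% and 55.0%. Of the 38 members in the lower 5 deciles, 1 had a CHD8 peak, against 31.4% of all genes there. In decile 5, which held 13 members, 72.9% of all genes and no member had a CHD8 peak. The members' shares thus lay below those of all genes of like CpG ratio among CpG-rich and among CpG-poor promoters, and no test was made of this.

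**Figure D4:**
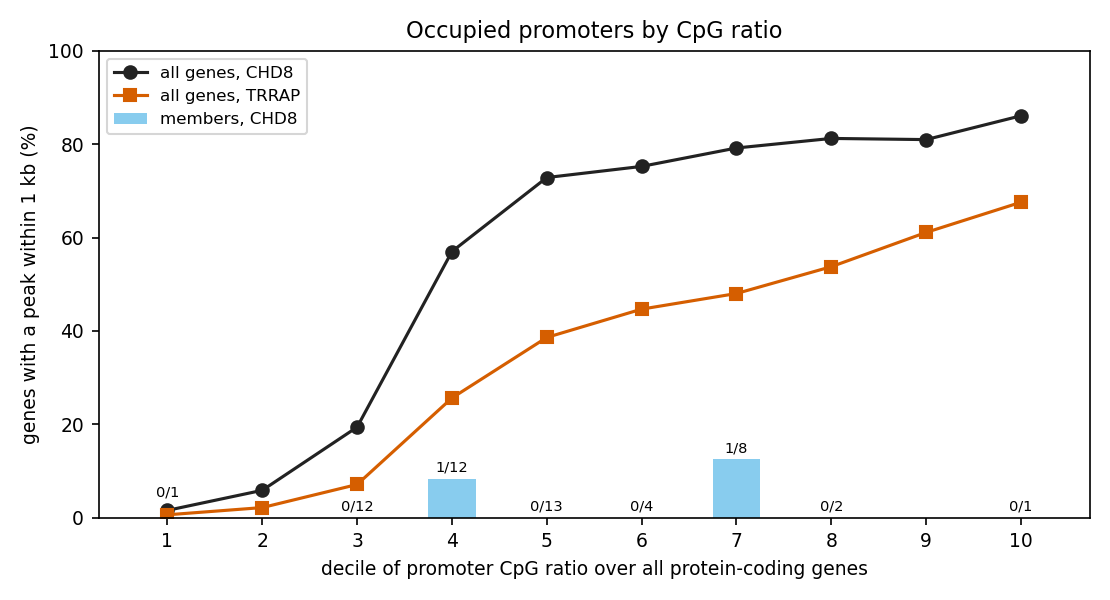
Percentage of genes with a peak within 1 kb of the start (vertical) by decile of promoter CpG ratio (horizontal) for all protein-coding genes (lines, CHD8 circles and TRRAP squares) and for members with a CHD8 peak (bars, with numbers of members above). The CHD8 line climbs from 19.4% to 72.9% between deciles 3 and 5, where most members lie, while the only bars are 1 of 12 and 1 of 8 members.

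GC content was lower in the members than this comparison takes into account. Among 914 other genes within the 25th to 75th percentile of the members' GC contents (43.1 to 47.2%), CHD8 occupied 11.3% and TRRAP 4.05%. The same ranges of GC content and CpG ratio (0.555 to 0.755) combined held 80 other genes, of which 46 (57.5%) had a CHD8 peak and 16 (20.0%) a TRRAP peak. The 13 members in the same range had 0 of either. The part of base composition in the low occupancy of the members was not tested further.

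Members resemble each other in sequence, and how reads with several equally good positions were treated is not given in the sources used here. In 31 of the 53 members at least one 32-base word within 500 bp of the start occurred more than once in the genome. Such words made up the larger share of the window in PCDHB13 alone (53.3%), and no C-type promoter held any. Of the 22 members without such a word 2 had a CHD8 peak (9.09%, 2.53 to 27.8), and these were again PCDHAC1 and PCDHB2. All 12935 genes without such a word had a CHD8 peak at 60.6% of starts and a TRRAP peak at 38.8%. The part of repeated sequence in the low count of members was not tested.

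The TGNCGCT word was counted by class. It stood on the coding strand in 12 of 13 alpha alternate promoters, PCDHA9 being the exception, and in 14 of 16 beta promoters, PCDHB1 and PCDHB6 being the exceptions. The corresponding counts were 3 of 12 in gamma A and 3 of 7 in gamma B promoters, and of the C-type genes only PCDHGC3 had it on that strand. Over all genes, 67.1% of those with the word on either strand had a CHD8 peak and 41.2% a TRRAP peak. Of the 35 members with it, PCDHB2 alone had a CHD8 peak. Around CHD8 and TRRAP summits (100 bp on each side) the word occurred in 9.63% and 9.00% of peaks.

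**Figure D5:**
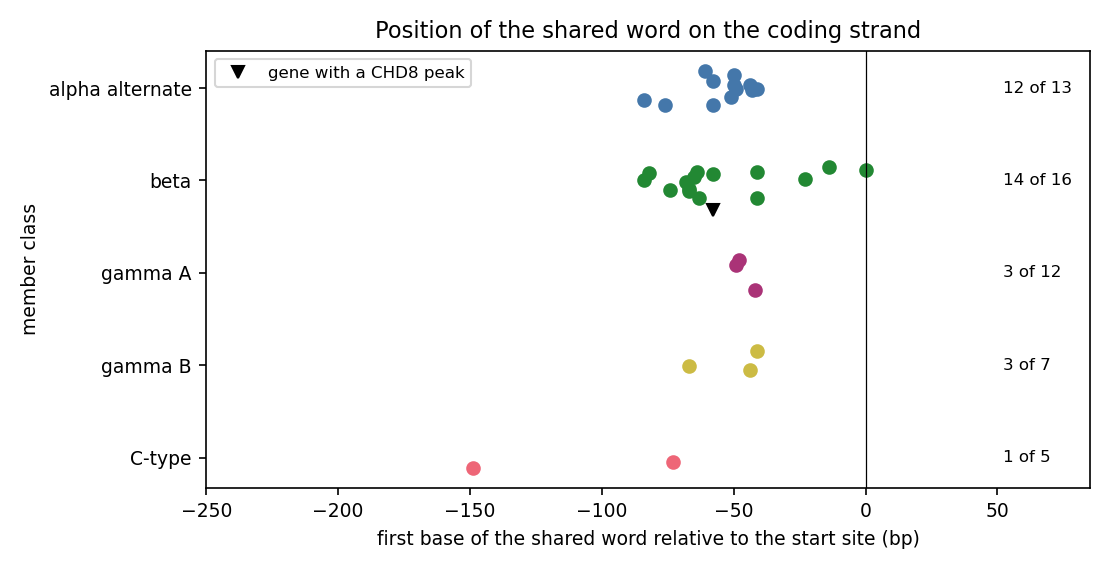
Position of the first base of the TGNCGCT word on the coding strand relative to the start (horizontal, bp) in each class (rows), with the number of genes that hold it at the right and PCDHB2, the gene with a CHD8 peak, marked by a triangle. Most points fall between −84 and −41 bases from the start.

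Of 8 further words searched the same way, GGCGCT, a longer form of the CGCT core that overlaps TGGCGCT, was the most frequent. It was in 24 members (45.3%) against 29.2% of all promoters, with 14 of 16 in beta, 6 of 12 in gamma A, 2 of 7 in gamma B and 0 of 13 in alpha alternate genes. The TATA word TATAAA was in 11 members (20.8%) against 9.71% of all promoters, and the CTCF word AGNNGGCGC, whose end overlaps GGCGCT, in 3 (5.66%, PCDHB7, PCDHB9 and PCDHGC4) against 13.8%. The E-box CACGTG, the core word of MYC sites, was in 3 members (5.66%, PCDHA9, PCDHA10 and PCDHA11) against 8.76%.

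The SP word GGGGCGGGG was in 0 of 53 members, against 24.5% of all promoters, and the ETS word CCGGAAGT in 0 (6.14%). The NRF1 word GCGCATGCG was in 0 (2.70%) and the YY1 word AAGATGGCG in 1, PCDHB7 (1.89% against 2.84%). The NRF1 and YY1 words were infrequent over all genes too, so counts of 0 and 1 among 53 lay near those shares. Over all genes CHD8 was found at 94.1% of promoters with the ETS word, 96.8% with the YY1 word and 90.4% with the NRF1 word, but at 25.1% with the TATA word. A match is a description of the letters and no match says only that these letters are not in the window.

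The genes known to act on these promoters were examined in the same way. Of 19 regulators of clustered protocadherin choice all 19 had a CHD8 peak and 15 (78.9%) a TRRAP peak within 1 kb of the start, against 55.9% and 34.9% of all genes. In the upper 5 deciles of CpG ratio, which held 18 of the 19, the shares over all genes were 80.5% and 55.0%. CTCF, the zinc-finger protein that binds alternate promoters, had a CHD8 peak of fold 48.6 and a TRRAP peak of fold 19.6. SETDB1, a histone H3 lysine methyltransferase, had folds of 33.6 for CHD8 and 7.69 for TRRAP. The cohesin subunit genes SMC3 (31.0 and 9.60), RAD21 (25.2 and 7.21) and STAG1 (23.9 and 22.5) and the cohesin loader gene NIPBL (26.5 and 16.8) also had both. These promoters were richer in CpG, with a median ratio of 0.862 against 0.665 in the members.

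The genes for intracellular partners of the protocadherins, among them kinases and the WAVE actin-regulatory complex, had a CHD8 peak at 13 of 15 starts (86.7%) and a TRRAP peak at 11 (73.3%). Of these genes 11 lay in the upper 5 deciles of CpG ratio, where the shares over all genes were 80.5% and 55.0%. The WAVE subunit genes ABI2 (fold 15.9 for CHD8 and 15.8 for TRRAP) and BRK1 (14.2 and 14.9), the Src-family kinase gene FYN (13.3 and 9.12) and the further WAVE complex genes ABI1 (14.2 and 7.69) and NCKAP1 (11.5 and 7.21) had both.

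Non-clustered protocadherins, each a gene of its own outside the 3 arrays, had a CHD8 peak at 8 of 12 starts and a TRRAP peak at 4, against 2 and 0 of 53 clustered members. These shares (66.7% and 33.3%) were near those of all genes (55.9% and 34.9%). PCDH9 (14.6 for CHD8 and 5.78 for TRRAP), PCDH18 (11.5 and 6.73), PCDH7 (9.31 and 8.65) and PCDH1 (9.31 and 6.26) had both. Their CpG ratios had a median of 0.648, near that of the clustered members, and their GC contents one of 59.5% against 44.4%. PCDH1 lies on the same chromosome, beyond the gamma array, and so does PCDH12, which had neither peak.

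Neighbouring genes differed from the members in CHD8 on both sides, but little in TRRAP. The shares over all genes were 55.9% for CHD8 and 34.9% for TRRAP. Of the 5 protein-coding genes before PCDHA1, 4 had a CHD8 peak and none a TRRAP peak. The histidyl-tRNA synthetase genes HARS1 and HARS2 share a start region, and the same peak of fold 16.4 was counted for both. All 5 genes after the gamma array had a CHD8 peak, and DIAPH1, a formin gene that nucleates actin, was the one with a TRRAP peak as well (14.2 for CHD8 and 15.3 for TRRAP). TRRAP peaks were therefore absent from the starts of all 5 genes before the arrays and, apart from DIAPH1, of those after them. CHD8 peaks resumed at starts on both sides.

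The cell type was checked against defining markers at the level the peak lists allow. All 8 neural stem cell genes examined, among them SOX2, NES and PAX6, had a CHD8 peak and 6 a TRRAP peak, against 55.9% and 34.9% of all genes. Of 4 pluripotency genes DPPA4 alone had either, and none of 4 astrocyte and 4 oligodendrocyte-lineage genes had a peak, while 2 of 5 neuronal genes had both. The median CpG ratio was 0.722 in the stem cell list, 0.755 in the neuronal, 0.518 in the oligodendrocyte-lineage, 0.418 in the pluripotency and 0.292 in the astrocyte list, and its part in these counts was not tested. Occupancy is not expression, and the expression of the members was not measured in these samples.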

How the data were processed

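ChIP-seq peak lists of 1 CHD8 and 1 TRRAP library were analysed. The submitters' processing notes name HISAT2, MACS2 (version 2.1.1.20160309) and GRCh38 without their role, and the control and filters are not given in the sources used here. For each peak the authors deposited a fold (a linear ratio over background), −log10 p and −log10 q values, a score that is derived from the −log10 q, and a summit. By their names, the CHD8 list was cut at a false discovery rate of 0.0001 and the TRRAP list at 0.001. All 84 and 88 sequence names were found in GRCh38, and 0 peaks ran past a sequence end.

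Starts were those of canonical transcripts of protein-coding genes in GENCODE 44, and coordinates count from 1. Peaks overlapped with at least 1 shared bp and were ranked by −log10 q, then fold, width and position. Copy number is the number of genomic occurrences of 32-base words. The promoter rule was tested on simulated peaks. No test between groups was made: with 1 library per antibody, genes are not replicates. Members, gene lists and words were chosen with earlier results of these data known. Every member was counted. Those described singly are the C-type genes, members with a peak, the 5 nearest misses and the first and last gene of each array. Genes of the related lists whose folds are given had both peaks and were among the 6 highest of their list by CHD8 fold, and not every such gene is reported here. Alternatives covered window, transcript starts, summits, rank, q-value and overlap. Python 3.11.15, pandas 2.3.3, numpy 2.4.6, scipy 1.17.1, pysam 0.24.0, numba 0.67.0 and matplotlib 3.10.9 were used.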

Additional observations from a re-analysis of the deposited data

How the results depend on the processing

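Of 48 alternatives 20 could only take peaks away from a count of 0 and so say nothing of its stability. Of the other 28, 25 left the counts of occupied members and of peaks in the interval within 1.5 times the values reported. Some of these 25 were also settled by the distances given above. No member lay closer than 24146 bp to a TRRAP peak, so a window of 2500 bp could not change that count. For CHD8 the 2 occupied starts lay inside their peaks and the next lay 5240 bp away, so neither window could change it. The count of 2 members with CHD8 held for windows of 500 and 2500 bp, for summits in place of peaks and for peaks above the median rank. The count of 0 members with TRRAP held for a window of 2500 bp and for the starts of all transcripts. With the starts of all transcripts the C-type genes with a CHD8 peak became 2 (PCDHAC1 and PCDHGC3), and the total became 3. PCDHGC3 was counted by the start of a further transcript, away from its C-type promoter. With peaks above the median rank the CHD8 peaks in the interval fell to 4. With the interval widened by 1 kb on each side, chosen after seeing the data, it held 2 TRRAP peaks, which lie just past the gamma array. No paired analysis was possible because each antibody had 1 library. Depth is unknown, and the variation between experiments could not be measured. Exact words miss sites with a mismatch.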

Other observations

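Classical cadherins, the adhesion proteins that give the superfamily its name, had a CHD8 peak at 6 of 19 starts (31.6%) and a TRRAP peak at 5 (26.3%), with both at 4 (21.1%). The shares over all genes were 55.9%, 34.9% and 34.0%. CDH2, the N-cadherin gene of neural epithelium, had folds of 12.0 for CHD8 and 12.5 for TRRAP. CDH24 (12.0 and 8.17), CDH3 (10.6 and 8.17) and CDH8 (8.43 and 6.26) were the others. The median promoter CpG ratio of this family was 0.695.

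Inside DIAPH1, beyond the gamma array, a TRRAP peak at bases 141560707 to 141561043 of chromosome 5 had a fold of 23.9 and ranked 467 of 14735, and it overlapped a CHD8 peak of fold 12.8. The summit of this TRRAP peak lay outside the exons of the canonical DIAPH1 transcript, 71809 bp past the start of PCDHGC5. It was at −189 bp from an annotated start of a further DIAPH1 transcript, and DIAPH1-AS1 spanned it as well. The peak was named after its values were seen.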
